A study of Mus musculus with 12 samples.

Results

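The E2F transcription factors and their DP dimer partners form a family of 10 genes in the mouse, E2f1 to E2f8, Tfdp1 and Tfdp2, and were taken from the count table by gene identifier. They were 10 of 26301 genes in the table, and 10 of 10 passed the filter on low counts that left 13882 genes for testing. Polyadenylated RNA was sequenced from 12 samples of mouse liver, 4 in each of 3 groups. The control group was non-tumor liver of wild-type mice. The DKO group was liver tumors of mice in which Alb-Cre deleted conditional alleles of E2f7 and E2f8, and the TKO group was liver tumors in which Alb-Cre also deleted Rb1. All mice were adults on the FVB background. The tumors arose spontaneously in ageing animals that were followed to the end of life. For the sequenced controls the titles say adult, and their age is not given in the sources used here. For its tissue staining, the paper describes the controls as littermates without Cre, taken at the same time as the knockouts.

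The albumin promoter drives Cre in hepatocytes, so other cells of the tissue keep the intact alleles. Each library came from a separate liver. In bulk tissue, fewer cells that express a gene and less RNA per cell cannot be told apart. Control against tumor also sets normal liver against tumor tissue, and genotype and tumor state cannot be told apart in that comparison.

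E2F proteins bind promoters of genes for DNA replication and the cell cycle. E2F1, E2F2 and E2F3 are classed as activators and are held in check by the retinoblastoma protein, while E2F4 and E2F5 repress with the related pocket proteins p107 and p130, and E2F6 acts with Polycomb proteins. E2F1 to E2F6 bind DNA as dimers with a DP protein, which Tfdp1 and Tfdp2 encode. E2F7 and E2F8 are atypical: they bind DNA without a DP partner, repress, and limit the activator E2Fs. In the adult liver most hepatocytes are at rest, and E2F7 and E2F8 are known for their part in making hepatocytes polyploid.

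Family members can themselves be E2F targets, so the promoters of the family were searched for 4 E2F words (TTTCCCGC, TTTCGCGC, TTTGCCGC and TTTGGCGC) and for the cell-cycle homology region (CHR, TTTGAA), each on both strands. RefSeq promoter windows of 300 bases, from 250 before to 50 after the transcript start (build GRCm38.p6), covered 8 of the 10 genes with 12 promoters. An E2F word lay in the windows of 4 genes, E2f2, E2f3, E2f7 and Tfdp1, against 2.6% of 27025 genes in the same reference. The CHR word lay in the windows of 3 genes, E2f2, E2f3 and E2f8, against 20.2% of genes. The 4 stretches below are examples, with the E2F word from 3 of the 4 genes and the CHR word of E2f8, the member with the highest log2 difference over all tumors. Capitals mark the word or its reverse complement, and each is read 5′ to 3′ on the strand of the gene.
E2f3, chr13:29986064-29986085, minus strand, E2F word 11 bases before the start: ttgaaaagccgGCGGGAAAtct
E2f7, chr10:110745230-110745259, plus strand, E2F word 198 bases before the start: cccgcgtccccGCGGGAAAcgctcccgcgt
Tfdp1, chr8:13338697-13338726, plus strand, E2F word 43 bases before the start of the upstream transcript: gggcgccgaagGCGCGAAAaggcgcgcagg
E2f8, chr7:48881599-48881628, minus strand, CHR word 20 bases before the start: gagcgggttaatTTCAAAtcgggggctgga
These matches describe letters in a window and are not evidence of binding.

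The libraries held 9165812 to 16424973 counts. Levels are given as CPM, the count of a gene scaled to the size of its library, with TMM, a method that corrects for a few dominant genes, and RPKM is CPM per 1000 bases of exon. The 5 hepatocyte markers summed to 46159 CPM or more in every library, and the labelled tissue is in that respect present throughout. Their sum varied widely, from 46159 CPM in TKO 4 to 308198 CPM in DKO 1, where albumin alone made up 4.8% and 22.7% of counts. The part of this spread in the levels of the members was not tested. Marker sums of other cells overlapped between groups: 54.7 to 342 CPM for Kupffer cells and macrophages and 401 to 1515 CPM for red cells. The 5 endothelial markers summed to 97.7 to 139 CPM in controls, 109 to 165 CPM in DKO and 118 to 243 CPM in TKO tumors. Of these 5, edgeR called 0. DESeq2 called 2 higher in DKO (10.4% of all genes called), 2 over both tumor groups (9.49%) and 0 in TKO tumors (3.49%). Pecam1 and Lyve1 were higher in every TKO tumor than in every control, against 4.38% of all genes. Stab2 and Clec4g of the same list had log2 differences of -0.42 and -0.82 in DKO tumors and 0.37 and 0.23 in TKO tumors. All 12 libraries carried Y-linked transcripts (Ddx3y at 472 to 1126 counts) and at most 6 counts of Xist. A G2/M score, the mean log2 CPM of 20 mitotic genes, ran from -0.19 to 0.57 in the controls, from 1.15 to 2.77 in DKO tumors and from 0.43 to 2.18 in TKO tumors. Only TKO 3 among the tumors fell inside the control range of that score.

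The deleted genes were examined first. E2f7 (mm9, chr10:110182495-110224440) was the lowest member, with counts of 15, 7, 8 and 10 in the controls, 24, 20, 16 and 4 in the DKO tumors and 14, 11, 9 and 12 in the TKO tumors. At these counts its mean was 0.811 ± 0.239 CPM in controls, 1.15 ± 0.716 CPM in DKO and 0.802 ± 0.0881 CPM in TKO tumors (SD, n = 4 each). The groups overlapped throughout, and the log2 fold change was 0.49 (SE 0.493, adjusted p = 0.582) in DKO and -0.01 (SE 0.506, adjusted p = 0.997) in TKO tumors. The DKO value was 0.15 without DKO 1 and 0.84 without DKO 4. The deletion removes part of a gene while the counts cover all its exons, so they do not check the deletion, and which exons were removed is not shown by them.

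E2f8 (mm9, chr7:56121799-56136966), the partner of E2f7 in atypical repression, had a higher mean level in both groups of tumors that carry its deletion than in the controls. It stood at 4.52, 8.97, 5.96 and 5.49 CPM in the controls, at 7.58, 45.6, 11.4 and 17.3 CPM in the DKO tumors and at 26.0, 13.8, 52.2 and 12.3 CPM in the TKO tumors. Every TKO tumor was above every control, while DKO 1 was below control 2, and DKO 2 and TKO 3 were far above the rest. The log2 fold change against control was 1.72 (SE 0.581) in DKO and 2.08 (SE 0.585) in TKO tumors, and neither passed the edgeR test (adjusted p = 0.103 and 0.146). DESeq2 called both (adjusted p = 0.0282 and 0.0155). Over both tumor groups the log2 fold change was 1.90 (SE 0.536, edgeR adjusted p = 0.0727, DESeq2 adjusted p = 0.0039). Without DKO 2, the DKO difference was 0.97 on the log2 scale, and without TKO 3 the TKO difference was 1.49. Gm2788, annotated on the opposite strand, overlaps 274 of the 5447 exon bases of E2f8, and whether counting used strand is not given in the sources used here.

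Rb1, the retinoblastoma gene deleted only in TKO mice, was at 6.51 to 10.7 CPM in the controls, at 7.98 to 11.3 CPM in the DKO tumors and at 3.20 to 5.47 CPM in the TKO tumors. All 4 TKO libraries were below the other 8. The log2 difference of TKO from DKO tumors was -1.01 (SE 0.215, edgeR adjusted p = 0.281, DESeq2 adjusted p = 0.00731).

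**Figure D1:**
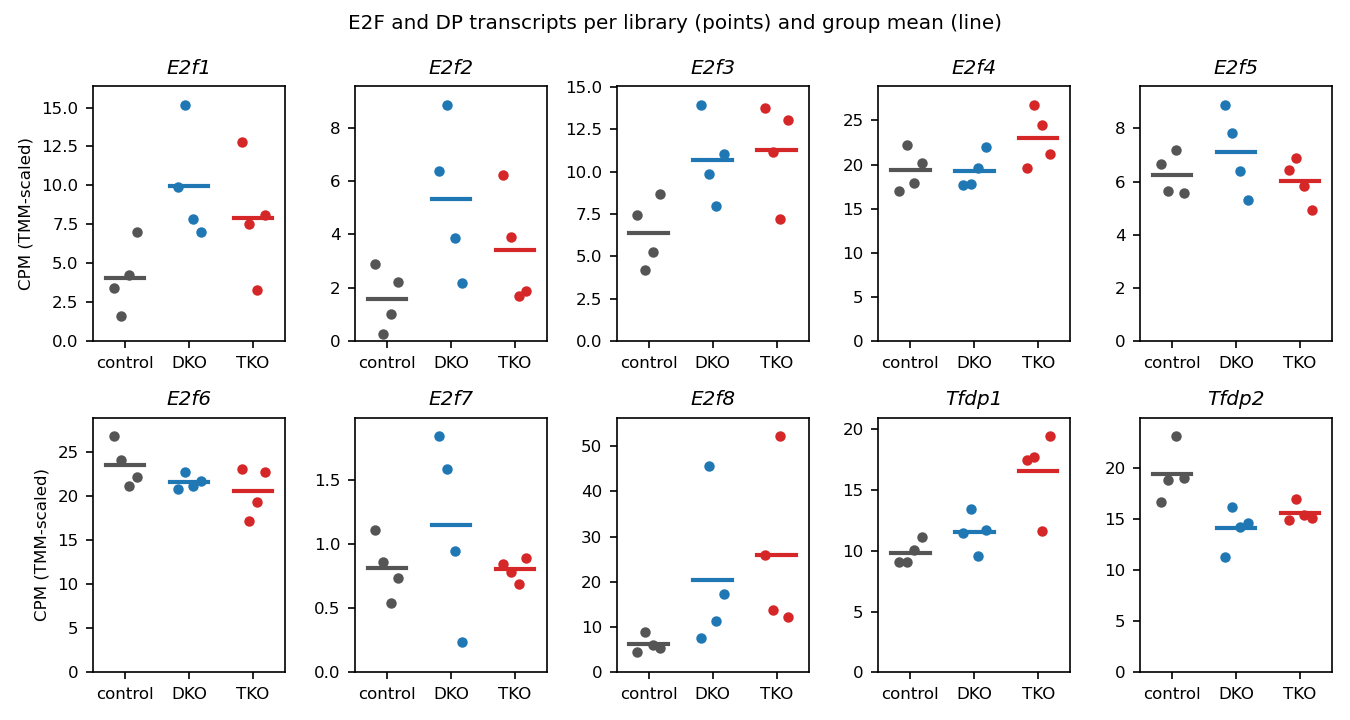
Level of the 10 genes in each library, in CPM on linear axes that start at 0, with 1 point per library and a bar at the mean of each group of 4. E2f8 shows 2 tumors near 50 CPM (DKO 2 at 45.6 and TKO 3 at 52.2), while E2f4, E2f5 and E2f6 overlap between groups.

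Among the activators, E2f1 (mm9, chr2:154385143-154395628), which drives entry into S phase, was at 3.41, 1.597, 4.26 and 7.02 CPM in controls. It was at 9.88, 15.2, 7.86 and 7.01 CPM in DKO tumors and at 12.8, 7.53, 3.29 and 8.12 CPM in TKO tumors. DKO 4 met the highest control, and TKO 3 lay within the control range. The log2 fold change was 1.27 (SE 0.450, adjusted p = 0.116) in DKO and 0.94 (SE 0.449, adjusted p = 0.323) in TKO tumors.

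E2f2 (mm9, chr4:135728309-135751972), a second activator, was detected by 2 to 39 reads per control library, or 0.246 to 2.89 CPM. It was at 6.36, 8.85, 3.84 and 2.18 CPM in DKO tumors and at 6.20, 3.90, 1.69 and 1.86 CPM in TKO tumors. The groups overlapped, and the log2 fold change was 1.69 (SE 0.629, adjusted p = 0.128) in DKO and 1.07 (SE 0.628, adjusted p = 0.425) in TKO tumors. E2f3 (mm9, chr13:29998444-30077537), the third activator, was at 7.41, 4.18, 5.28 and 8.70 CPM in controls, 13.9, 9.88, 7.98 and 11.0 CPM in DKO and 13.7, 11.1, 7.20 and 13.0 CPM in TKO tumors. One DKO and 1 TKO tumor fell below the highest control. Its log2 fold change was 0.73 (SE 0.270, adjusted p = 0.125) in DKO, 0.81 (SE 0.270, adjusted p = 0.183) in TKO and 0.77 (SE 0.240, adjusted p = 0.0884) over both tumor groups. DESeq2 called the last of these (adjusted p = 0.036), as did edgeR without TKO 3 (adjusted p = 0.0424). Without any other 1 library edgeR did not call it, with an adjusted p of up to 0.254.

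The repressors E2f4, E2f5 and E2f6 varied little. E2f4 (mm9, chr8:107821563-107829269), the E2F that dominates in resting cells, averaged 19.3 ± 2.33 CPM in controls, 19.3 ± 2.03 CPM in DKO and 23.0 ± 3.23 CPM in TKO tumors (SD, n = 4 each). E2f5 (mm9, chr3:14578671-14606308) averaged 6.26 ± 0.790, 7.10 ± 1.58 and 6.02 ± 0.853 CPM in the same order. E2f6 (mm9, chr12:16817771-16833549) averaged 23.5 ± 2.48, 21.6 ± 0.877 and 20.6 ± 2.81 CPM. Their log2 fold changes against control lay between -0.19 and 0.25, and none passed the test. The intervals (±2 SE) were widest for E2f5, from -0.22 to 0.57 in DKO and from -0.45 to 0.33 in TKO tumors.

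Of the DP partners, Tfdp1 was on average higher and Tfdp2 lower in both tumor groups than in controls. Tfdp1 (mm9, chr8:13338751-13378395), the more common DP partner, was at 9.04, 9.09, 10.1 and 11.1 CPM in controls, 11.4, 13.4, 9.57 and 11.7 CPM in DKO and 17.4, 17.7, 11.6 and 19.4 CPM in TKO tumors. Every TKO tumor was above every control, and TKO 3 was the lowest of the 4. The log2 fold change was 0.75 (SE 0.173, edgeR adjusted p = 0.118, DESeq2 adjusted p = 0.0155) in TKO and 0.23 (SE 0.173, adjusted p = 0.458) in DKO tumors. Without TKO 3 the TKO difference was 0.88 and passed the edgeR test (adjusted p = 0.0213). Without any other 1 library it did not pass, with an edgeR adjusted p of up to 0.322. Tfdp2 (mm9, chr9:96096694-96224065) was at 16.7, 18.8, 23.1 and 19.0 CPM in controls, 11.3, 16.2, 14.2 and 14.6 CPM in DKO and 14.9, 17.0, 15.4 and 15.1 CPM in TKO tumors. Every DKO tumor was below every control, and TKO 2 lay above the lowest control. The log2 fold change was -0.46 (SE 0.140, edgeR adjusted p = 0.083, DESeq2 adjusted p = 0.0372) in DKO and -0.31 (SE 0.140, adjusted p = 0.291) in TKO tumors.

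The ratio of Tfdp1 to Tfdp2, per exon length, combines these differences and is no further evidence of them. It was 1.28 to 1.72 in controls (1.50 ± 0.190, SD, n = 4), 1.98 to 2.95 in DKO (2.43 ± 0.402) and 2.20 to 3.76 in TKO tumors (3.11 ± 0.670). All 8 tumors were above all 4 controls, and the tumor groups overlapped with TKO 3 at 2.20. The ratio of 2 genes within a library was not tested across all genes, and the exon lengths used take all annotated isoforms together.

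**Figure D2:**
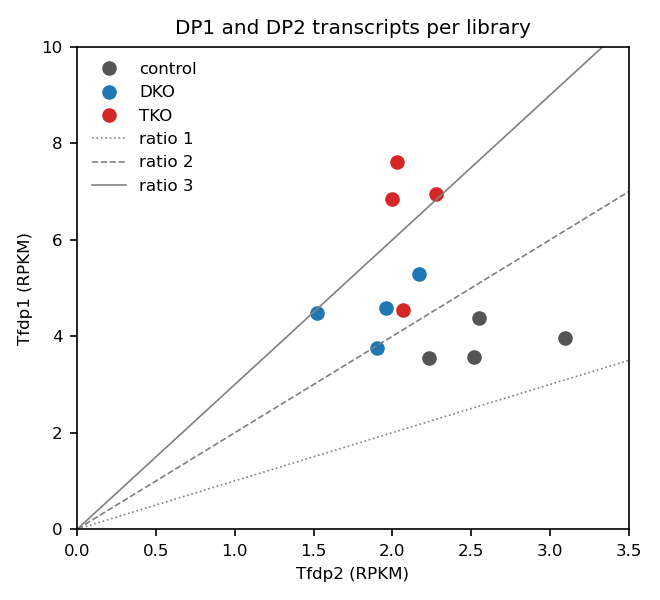
Level of Tfdp1 against that of Tfdp2 in RPKM, with 1 point per library coloured by group and grey lines of constant ratio. The ratio is 1.28 to 1.72 in the 4 controls and 1.98 to 3.76 in the 8 tumors.

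In the DKO comparison edgeR called 0 of the 10 members against 2.42% of all 13882 genes tested, 5 members had an unadjusted p under 0.05 against 24% of genes, and DESeq2 called 2 against 10.4%. No member was higher in every DKO tumor than in every control, against 8.87% of genes, and 1 was lower in all, against 7.3%. In the TKO comparison edgeR called 0 members against 0.0864% of genes, 4 had an unadjusted p under 0.05 against 16.3%, and DESeq2 called 2 against 3.49%. Here 2 members were higher in all TKO tumors, against 4.38% of genes, and 0 were lower, against 3.29%. Over both tumor groups edgeR called 0 members against 2.48% of genes, 6 had an unadjusted p under 0.05 against 23%, DESeq2 called 3 against 9.49%, and 0 members had all 8 tumors above the controls, against 2.2%, or below them, against 1.46%. The comparisons share the 4 controls. The median log2 difference of the 10 members was 0.36 in DKO, 0.50 in TKO and 0.36 over both, beside 0.02 over all genes in each.

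TKO and DKO tumors, which differ in genotype by Rb1, were compared directly. The paper reports a longer tumor latency in DKO than in TKO mice, so Rb1 loss and age at collection cannot be told apart here. Of the 10 members edgeR called 0 against 0% of genes, with 1 member at an unadjusted p under 0.05 against 9%. DESeq2 called 0 against 0.398%. No member had TKO tumors all above DKO tumors, against 2.75% of genes, or all below, against 2.12%. Tfdp1 had the lowest p, with a log2 difference of TKO from DKO of 0.52 (SE 0.172, interval of ±2 SE 0.18 to 0.86, adjusted p = 0.45). For E2f1, the difference was -0.32 (interval -1.20 to 0.55), for E2f2 it was -0.62 (-1.82 to 0.58) and for E2f3 it was 0.08 (-0.45 to 0.61). For E2f8 the interval reached from -0.75 to 1.45 around 0.35, and the difference was -0.23 without TKO 3 and 1.10 without DKO 2. These intervals include differences of over 2-fold in E2f1, E2f2 and E2f8.

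**Figure D3:**
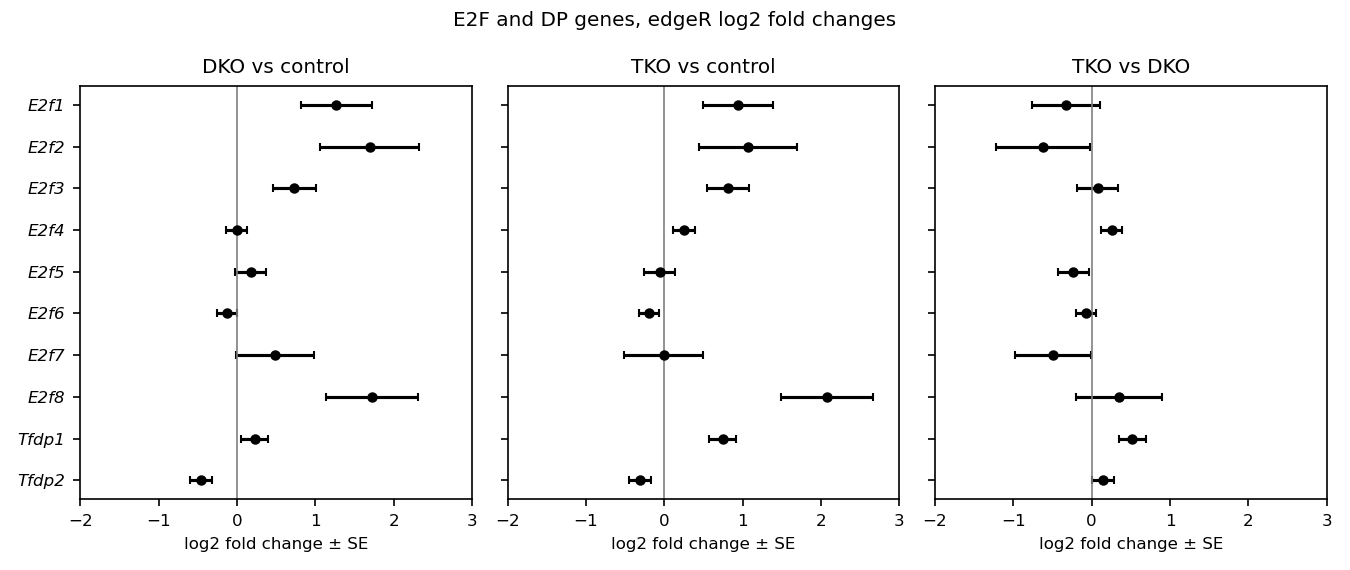
Log2 fold change of each gene from edgeR in the DKO against control, TKO against control and TKO against DKO comparisons, with bars of 1 SE. The activators and E2f8 lie right of 0 in both comparisons with control, where the E2f8 value is 1.72 in DKO and 2.08 in TKO tumors, and no member passed the adjusted test.

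Compared per exon length, the family is led by repressors in normal liver. E2f4 and E2f6 had the highest control levels, at 9.71 ± 1.17 and 9.58 ± 1.01 RPKM, which do not differ beyond their spread, and E2f5 followed at 3.58 ± 0.452 RPKM. E2f3 (1.33 ± 0.426), E2f1 (1.29 ± 0.716) and E2f8 (1.14 ± 0.352 RPKM) could not be ordered beyond their spread, and E2f2 (0.325 ± 0.242) and E2f7 (0.0900 ± 0.0265 RPKM) were lowest. The DP genes were at 3.87 ± 0.387 RPKM for Tfdp1 and 2.60 ± 0.359 RPKM for Tfdp2. In tumors, E2f8 reached 3.76 ± 3.16 RPKM (DKO) and 4.79 ± 3.39 RPKM (TKO), and E2f1 reached 3.16 ± 1.16 and 2.51 ± 1.23 RPKM.

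As a share of the summed RPKM of E2f1 to E2f8, the repressors E2f4 to E2f6 held 80.0 to 88.4% in the controls (84.6 ± 3.46%), 56.8 to 75.6% in DKO (69.4 ± 8.55%) and 63.7 to 75.0% in TKO tumors (69.4 ± 5.81%). All 8 tumors were below all 4 controls. Activators held 10.9 ± 4.48%, 19.5 ± 3.63% and 16.5 ± 6.19% in the same order, and the atypical pair held 4.56 ± 1.27%, 11.1 ± 7.21% and 14.0 ± 8.93%. A share falls when others rise, and none of the 3 repressor genes passed the test of its own level. The sum includes reads of E2f7 and E2f8, the genes deleted in both tumor groups. In TKO 3, E2f8 alone held 26.6%, while activators held 8.02%, against 5.22 to 16.1% in the controls. The part of the E2f8 reads in the lower repressor share was not tested, and no such share was computed for other genes. Without the correction for length the repressor share was 72.1% in controls, 52.0% in DKO and 50.9% in TKO tumors, the activator share 17.5, 27.3 and 23.4%, and the atypical share 10.4, 20.8 and 25.7%.

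**Figure D4:**
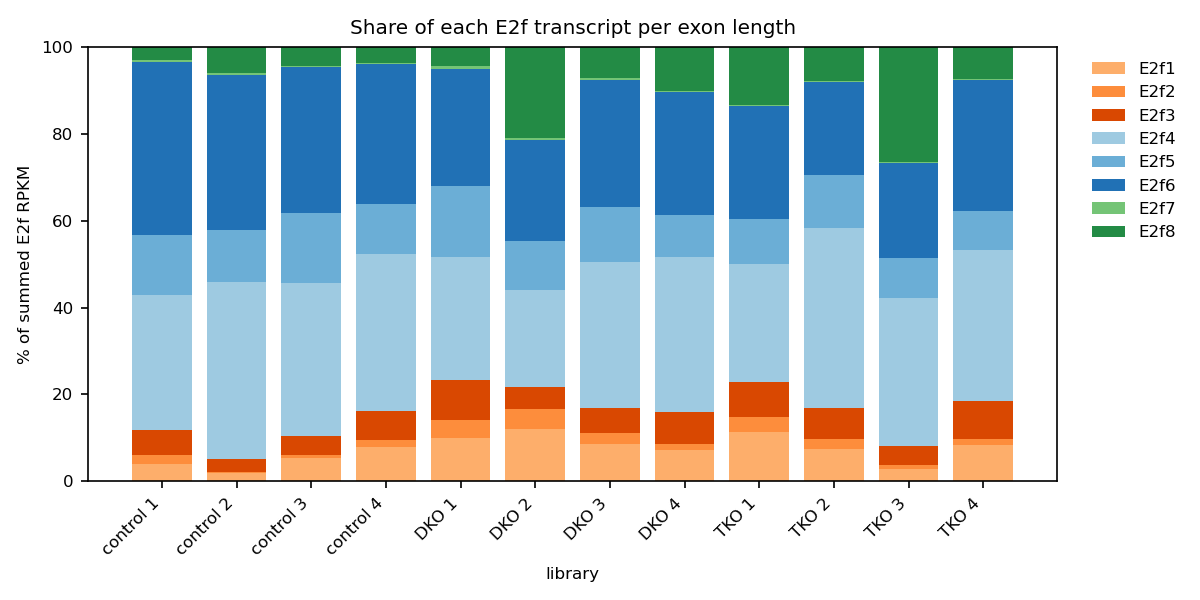
Share of each E2f transcript in the summed RPKM of E2f1 to E2f8, 1 bar per library, on an axis from 0 to 100%. Activators are orange, repressors blue and the atypical genes green. Repressors hold 80.0% or more in each control and at most 75.6% in each tumor.

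Because several E2F genes are cell-cycle regulated, each gene was set against the G2/M score within groups, as the change in log2 level per unit of score with a mean for each group. E2f1 had a slope of 0.93 (SE 0.207, adjusted p = 0.0903) and E2f2 one of 1.19 (SE 0.326, adjusted p = 0.184), which placed them at the 97.6 and 98.8 percentile of all genes tested. E2f7 followed at 0.67 (SE 0.343, adjusted p = 0.499), E2f3 at 0.42 (SE 0.172, adjusted p = 0.386) and Tfdp1 at 0.26 (SE 0.109, adjusted p = 0.402). E2f8 had a slope of -0.04 (SE 0.380, adjusted p = 0.982). edgeR called 0 of the 10 members, against 0.375% of genes, and 4 had an unadjusted p under 0.05, against 11.2%. The part of the mitotic score in the tumor differences of E2f1 and E2f2 was not tested. TKO 3, whose score was the lowest of any tumor at 0.43, had the highest E2f8 and the lowest E2f1 of the tumors, and the E2f8 slope without it was 0.66 (adjusted p = 0.778), whereas without DKO 2 it was -0.78 (SE 0.270, adjusted p = 0.386). TKO 3 also had the highest endothelial and macrophage marker sums of all libraries, at 243 and 342 CPM, and their part in its E2f8 level was not tested. The ratio of E2f8 to E2f1 per length was 9.17 in TKO 3, against 0.445 to 3.25 in the other 11 libraries.

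**Figure D5:**
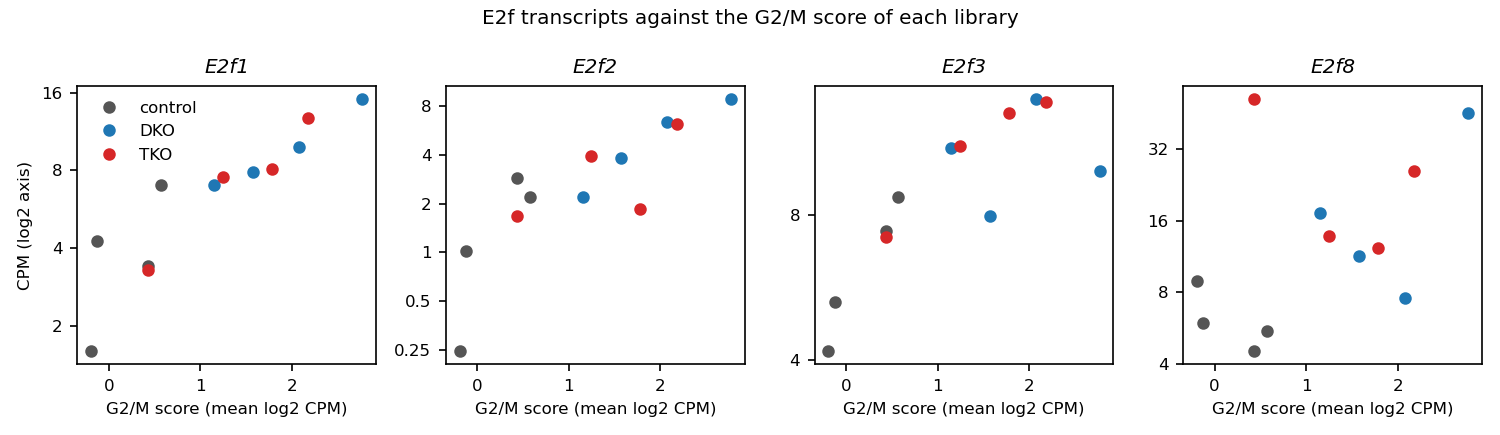
Level of E2f1, E2f2, E2f3 and E2f8 (CPM, log2 axis) against the G2/M score of each library (mean log2 CPM of 20 mitotic genes), 1 point per library coloured by group. E2f1 is highest in DKO 2 (15.2 CPM), which has the highest score, while TKO 4, at a score of 1.78, has E2f2 at 1.86 CPM, within the control range, and TKO 3, at a score of 0.43, has the highest E2f8 (52.2 CPM).

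The genes whose levels across the 12 libraries were most like a member differed between members. For E2f1, these included Lmnb2, Anapc1, Orc1 and Trip13 (Pearson r from 0.95 to 0.96). For E2f2 they were Uhrf2, Pola1, Ier5, Kif15 and Gfpt1 (0.93 to 0.95). For E2f8 they were Golph3l, Fzd7, Taf6, Zdhhc13 and Eral1 (0.83 to 0.87), and for Tfdp1 they were Vps45, Cd276, Gm19276, Sptb and Sh3bp1 (0.90 to 0.94). E2f2 stood at rank 105 for E2f1 and E2f8 at rank 4154 of 13881 genes. These are descriptions, since the libraries share group differences and depth.

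Pocket proteins, which hold E2Fs, showed a change in Rbl2, the gene of p130. Rbl2 was at 33.3 to 36.0 CPM in controls, 16.9 to 21.2 CPM in DKO and 15.5 to 29.4 CPM in TKO tumors, and every tumor was below every control. It fell by 0.86 in DKO (SE 0.188, edgeR adjusted p = 0.046) and by 0.79 over both tumor groups (SE 0.158, adjusted p = 0.0406) on the log2 scale. In TKO tumors, the difference was -0.72 (SE 0.187, edgeR adjusted p = 0.132, DESeq2 adjusted p = 0.0241). Without control 2 or without control 3, edgeR called 0 genes in either the DKO or the tumor comparison, so neither Rbl2 call held there. Rbl1, the gene of p107, was at 1.96 to 9.58 CPM in controls, 6.54 to 11.1 CPM in DKO and 4.67 to 12.9 CPM in TKO tumors, and the groups overlapped. Its log2 difference from control was 0.70 (SE 0.424, adjusted p = 0.335) in DKO and 0.88 (SE 0.424, adjusted p = 0.331) in TKO tumors.

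Other lists of the pathway were counted over both tumor groups, where edgeR called 2.48% of all genes, 23% had an unadjusted p under 0.05 and DESeq2 called 9.49%. Of 20 mitotic genes of the score, edgeR called 5 higher and 0 lower, with a median log2 difference of 1.67. Of the same 20, 19 had an unadjusted p under 0.05 and DESeq2 called 17, all of them higher. Mki67, a proliferation marker, was highest at 2.49 (SE 0.549, adjusted p = 0.0444), and Birc5, the survivin gene, followed at 2.22 (adjusted p = 0.0502). Aurka, a spindle kinase, and Cenpe, a kinetochore motor, were lowest at 1.12 and 0.81 (adjusted p = 0.152 and 0.443). In DKO tumors alone edgeR called 4 of the 20, with 19 at an unadjusted p under 0.05 (24% of all genes) and 17 called by DESeq2 (10.4%). In TKO tumors alone edgeR called 0, with 16 at an unadjusted p under 0.05 (16.3% of all genes) and 4 called by DESeq2 (3.49%).

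Of 20 S-phase genes, which are classic E2F targets, 0 were called, 11 had an unadjusted p under 0.05 and DESeq2 called 3, with a median of 0.78. Rrm2, a ribonucleotide reductase subunit, was highest at 1.75 (adjusted p = 0.0799), and the replication helicase genes Gins2 and Gins1 were at 1.30 and 0.12 (adjusted p = 0.175 and 0.845). Of 8 G1 cyclin and kinase genes 0 were called, 3 had an unadjusted p under 0.05 and DESeq2 called 1, with a median of 0.42. The cyclin E genes Ccne1 and Ccne2 were highest at 1.27 and 1.01 (adjusted p = 0.216 and 0.294), and the cyclin D genes Ccnd2 and Ccnd1 lowest at -0.01 and -0.16 (adjusted p = 0.989 and 0.842).

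Of 12 genes of the Polycomb complex PRC1.6, in which E2F6 acts, 0 were called by edgeR or DESeq2 and 0 had an unadjusted p under 0.05, with a median of 0.06 and a range from Ring1 and Yaf2 (-0.45 and -0.20) to Max and Rybp (0.20 and 0.28). Of 7 genes listed as the MuvB core and B-Myb group, 6 were tested. Of these 0 were called, 1 had an unadjusted p under 0.05 and DESeq2 called 1. Lin52 and Lin54, both MuvB subunits, were lowest at -0.59 and -0.35 (adjusted p = 0.0671 and 0.307). Rbbp4 and Mybl1, the gene of A-Myb rather than B-Myb, were highest at 0.20 and 0.39 (adjusted p = 0.513 and 0.714). Of 7 CDK inhibitors edgeR called 2 higher, Cdkn2c at 2.11 (SE 0.372, adjusted p = 0.0406) and Cdkn1a at 2.01 (SE 0.426, adjusted p = 0.0437). Of the 7, 2 had an unadjusted p under 0.05 and DESeq2 called 2. Cdkn1b and Cdkn1c were lowest at -0.30 and -0.56 (adjusted p = 0.266 and 0.463). In DKO tumors alone edgeR and DESeq2 each called 2 of the 7 higher, against 2.42% and 10.4% of all genes. In TKO tumors alone edgeR called 0, against 0.0864%, and DESeq2 called 2 higher, against 3.49%. Without TKO 1, TKO 2, control 2 or control 3, edgeR called 0 genes over both tumor groups.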

How the data were processed

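Reads from the SOLiD platform were aligned to mm9 with BWA and counted per gene with featureCounts by the authors, who deposited raw counts for 12 libraries. Versions, strand and treatment of multiply mapped reads are not given in the sources used here. Gene identifiers were matched to symbols through RefSeq (24191 of 26301, holding 99.4% of counts), and exon lengths and coordinates came from GENCODE on NCBIM37 (mm9). Counts were scaled by TMM, filtered by filterByExpr and tested with edgeR 4.0.16 (R 4.3.3) by the quasi-likelihood test over all 12 libraries with a mean per group. Adjusted p-values are Benjamini-Hochberg over 13882 genes, with calls under 0.05. The SE is the log2 fold change divided by the root of the F statistic. Log2 CPM used a prior count of 2. DESeq2 1.42.0, which the study's methods name, and limma 3.58.1 voom with quality weights were alternatives. The code was tested on simulated data. Levels between genes were compared only per length. The text names all 10 members, the 3 pocket protein genes, the 2 highest and 2 lowest of each other pathway list over both tumor groups, and the 5 genes most like 4 of the members. Of these, 2 genes are not reported here. Members and lists were chosen with earlier results of these data known. Replicate libraries were compared by the chi-square per gene of their counts, and none agreed within sampling noise. Control 2 and control 3 were the closest pair, at 19.9, against 63.2 to 74.6 for the other control pairs. In the sample descriptions the codes of both begin with e, as does that of TKO 1, and their meaning is not given. Depth of 9165812 to 16424973 counts left E2f7 with 4 to 24 reads per library.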

Additional observations from a re-analysis of the deposited data

How the results depend on the processing

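Genes called depended on the tool and on single libraries, and the cause was not tested. In DKO against control, 336 genes became 1518 with DESeq2, 59 with total counts as the only scaling (52 higher and 7 lower, against 196 and 140), 759 with only the libraries compared, 509 with a replicate block and 1804 with voom. Leaving out 1 library gave 0 (control 2 or control 3) to 651 (TKO 3). In TKO against control, 12 became 507 with DESeq2, 22 with no filter, 1 with the block and 97 with voom, and 0 to 231 without 1 library (highest without TKO 3). In TKO against DKO, 0 became 56 with DESeq2, and stayed at 0 without any 1 library. Over both tumor groups, 344 became 1422 with DESeq2, 61 with total counts (51 higher, 10 lower, against 174 and 170) and 1813 with voom, and 0 to 1019 without 1 library. For the G2/M slope, 52 became 1372 with no group means, 16 with the 8 tumors only and 9 with the block, and 0 (without DKO 2) to 70. Each library, whatever its number, came from its own animal. Of 12 same-number pairs, 5 had correlated deviations above 0.1 (range -0.17 to 0.37). Pairs with unlike numbers ranged from -0.35 to 0.32. These ranges overlap, so the correlations cannot decide whether the numbers mark any pairing. The block also gave 441 over both tumor groups. Total counts shifted the median of all genes by 0.15 in TKO against control. All libraries showed 1 sex pattern, so a sex term could not be fitted.

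Of the values of the 10 members under alternatives, 903 kept their direction and call, 21 passed the threshold and 38 reversed. Values that reversed were within 0.12 of 0 in the main fit, except that of E2f8 between tumor groups, at 0.35 (SE 0.550). E2f4 in DKO became 0.0659 (total counts), 0.00987 (no filter), 0.0129 (at least 10 counts), 0.00128 (block) and 0.00971 (voom), and -0.0743 to 0.0670 without 1 library. E2f5 in TKO became 0.0717 (total counts) and -0.13 to 0.0181 without 1 library, and over both tumor groups -0.0147 to 0.13. E2f7 in TKO became 0.13 (total counts), 0.00368 (no filter), 0.0288 (block) and 0.21 (voom), and -0.17 to 0.19. Between tumor groups E2f6 became 0.0438 (total counts) and -0.13 to 0.00643, E2f3 -0.0407 to 0.24 and E2f8 -0.23 to 1.10. The slope of E2f6 became -0.0152 with no group means. That of E2f8 became 0.15 (S-phase score), 0.41 (no group means), 0.0439 (tumors only) and 0.14 (block), and -0.78 to 0.66. That of Tfdp2 became 0.0289, 0.00986 and 0.10 (S-phase score, tumors only, block), and -0.15 to 0.000507. Adjusted p-values that passed the threshold beyond those in the text came from voom in DKO (E2f1 0.0451, E2f2 0.0405, E2f3 0.0425, Tfdp2 0.0271) and over both tumor groups (E2f3 0.0254, Tfdp1 0.0422, Tfdp2 0.0263), from DESeq2 for Tfdp2 over both tumor groups (0.0422), from the block for E2f3 over both (0.0411), without TKO 3 for Tfdp1 over both (0.0286), and with no group means for the slopes of E2f1 (0.00197), E2f2 (0.00555) and E2f3 (0.0171).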
